A study of Mus musculus with 8 samples.

Results

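Nuclear-encoded genes of oxidative phosphorylation were described in RNA-seq of mouse intestinal crypts from a control and from libraries labelled as knockouts of the histone methyltransferase gene Setdb1. Members were chosen by symbol, as genes that start with Ndufa, Ndufb, Ndufc, Ndufs, Ndufv, Uqcr, Cox4i, Cox5, Cox6, Cox7, Cox8 or Atp5, together with Sdha, Sdhb, Sdhc, Sdhd and Cyc1, leaving out names of pseudogenes. The rule took 94 genes of the deposited crypt table, in which 16958 genes had values. The series holds 8 samples of C57BL/6 mice aged 8 weeks, of which the 6 crypt libraries were used here. The control library, WT, had the genotype setdb1fl/fl, and 5 libraries labelled setdb1 iIEC-KO were titled VEMD2, VEMD3, VEMD4, VEMD6 and VEMD8. Per the labels' protocols, recombination was switched on with CreERT2 under the Villin promoter, which is active throughout the intestinal epithelium, and WT littermates also received the single gavage of tamoxifen at 800 mg/kg. The number of mice behind a library and the meaning of VEMD are not given in the sources used here, so the numbers in the titles serve as names only. Lgr5-EGFP-ires-CreERT2 stem cell samples, with setdb1fl/+ or setdb1fl/fl, were not analysed here.

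Each group is 1 library, so no value carries an error, no difference was tested, and higher and lower describe these libraries alone. Values are FPKM, fragments per kilobase of gene for a fixed number of fragments in the library, and the counts behind them were not used here, so their precision is unknown. Ratios to WT are on the log2 scale with 1 FPKM added to each value, and a gene counted as tested when its mean over the 6 libraries was at least 1 FPKM. This held for 88 of the 94 members and for 10862 genes in all. Series of 5 values or ratios follow the order VEMD2, VEMD3, VEMD4, VEMD6, VEMD8 throughout. Setdb1 was at 9.42 FPKM in WT and 6.64, 7.03, 5.49, 3.53 and 4.95 in the knockouts, so between 37.5% and 74.6% of the WT value was left in libraries labelled as knockouts. The value is for the whole gene, and which exons were deleted is not given in the sources used here, so it checks the labels only in part. Over all genes tested the median ratio to WT was 0.09, 0.12, 0.03, -0.23 and -0.06, which sets the zero point for VEMD6 and VEMD3. Epithelial markers such as Epcam were present in every library, with a summed level of 4387 to 5474 FPKM over 5 genes, and 8 stromal and muscle markers together reached 0.22 to 2.19 FPKM.

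Oxidative phosphorylation is the passage of electrons from nutrients to oxygen along the inner mitochondrial membrane, coupled to the making of ATP. Complexes I and II feed electrons from NADH and succinate to ubiquinone, complex III passes them to cytochrome c, and complex IV passes them to oxygen. Complexes I, III and IV pump protons, and complex V, the ATP synthase, uses their return flow. Most subunits are encoded in the nucleus and a few in the mitochondrial genome, whose genes were not analysed here. In crypts, stem cells are known to rely on mitochondrial respiration, and Paneth cells more on glycolysis.

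In all 5 knockout libraries the median subunit was lower than in WT. Of the 94 members, 77 are subunits of the complexes found in most tissues, 8 are assembly factors of complex I, 8 are tissue isoforms of complex IV and 1, Cox7a2l, is a factor that joins complexes into supercomplexes. Summed over the members with values, their level was 30154 FPKM in WT and 21306, 20399, 18552, 24066 and 21614 in the knockouts. WT was highest and VEMD4 lowest. As a share of all FPKM in a library, the members took 5.15% in WT and 3.76%, 3.82%, 3.63%, 4.998% and 4.39% in the knockouts, so by this measure VEMD6 lay close to WT. In crypts as a whole, fewer cells of a type and less RNA per cell cannot be told apart.

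The difference was modest in size and alike across subunits. For the 77 subunits the median log2 ratio was -0.50, -0.58, -0.71, -0.38 and -0.51, which is 29.1%, 32.9%, 38.8%, 23.4% and 29.8% lower. Relative to the median gene of each library, the same medians were -0.58, -0.70, -0.74, -0.15 and -0.45, so the distance of VEMD6 shrank most. The range between the quartiles of the subunits was 0.20, 0.22, 0.24, 0.31 and 0.34 on the log2 scale, while that of all genes tested was 0.52, 0.65, 0.67, 0.76 and 0.64. For 90 genes taken by the symbol prefixes of cytosolic ribosomal proteins, Rpl and Rps, it was narrower still, at 0.14, 0.17, 0.20, 0.25 and 0.28. These prefixes also match genes of other kinds, such as Rps6k kinases, which were not removed. A narrow range is thus not particular to the subunits. All 5 comparisons share the 1 WT library.

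Few members passed a 2-fold difference. In VEMD2, 1 of 88 members was at least 2-fold lower, against 2.39% of all genes tested, and none was 2-fold higher, against 2.44%. In VEMD3, 2 were lower, against 4.62%, and 1 was higher, against 6.0%. In VEMD4, 5 were lower, against 5.04%, and 1 was higher, against 7.1%. The 5 were Cox7a1, Sdhb, Atp5j2, Ndufv3 and Atp5h. In VEMD6 none was lower, against 8.15%, and none higher, against 5.04%, and in VEMD8, 1 was lower, against 5.21%, and none higher, against 4.36%. These shares were near or under the background. No member was at least 2-fold lower in all 5 libraries, against 0.626% of genes, and none 2-fold higher in all 5, against 0.571%. At 1.5-fold, 24, 38, 63, 18 and 32 members were lower, against 7.48%, 11.2%, 13.1%, 25.0% and 14.7% of all genes. The count in VEMD6 was near its background and those of the other libraries were above theirs. At most 2 members were 1.5-fold higher in any library, against 10.2% to 16.5% of all genes. The 5 members at least 1.5-fold lower in every knockout library, against 2.16% of genes, were Atp5e, Cox7c, Ndufb11, Ndufb5 and Ndufs7.

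**Figure D1:**
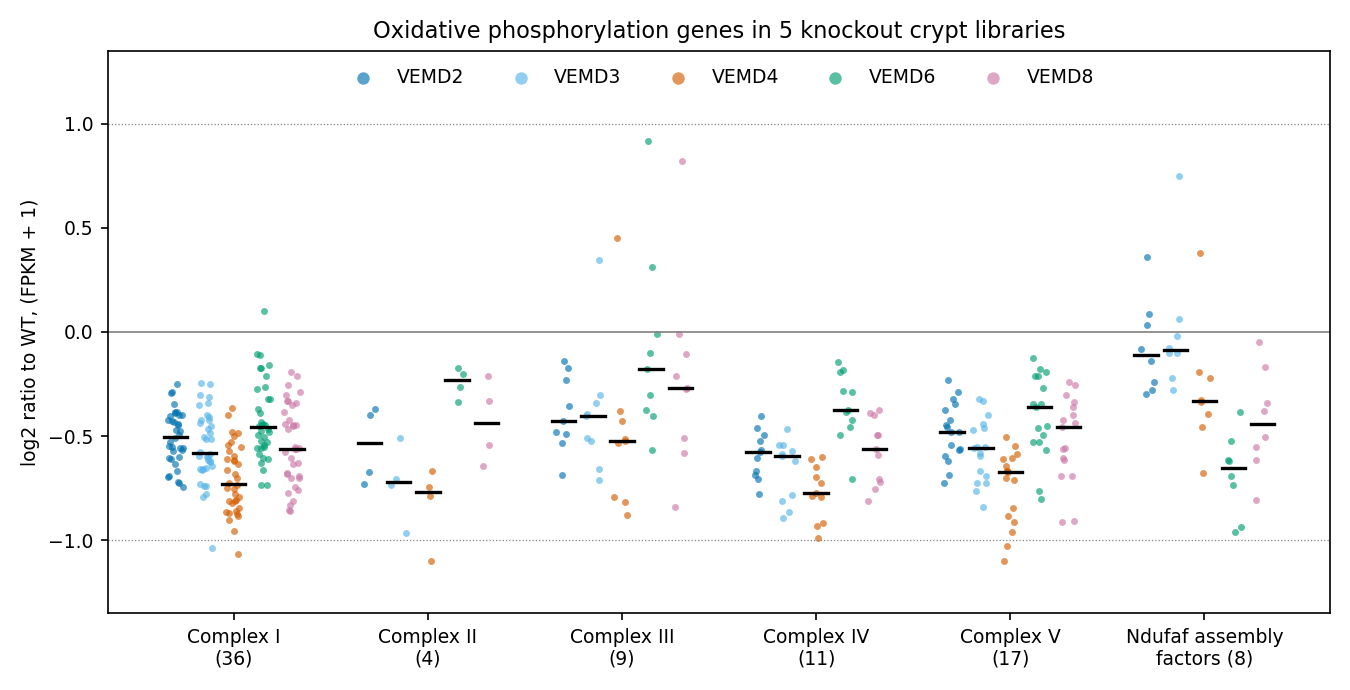
Log2 ratio to WT (vertical axis, after adding 1 FPKM) of each tested subunit by complex and of the Ndufaf assembly factors, in the 5 knockout libraries (colours), with the number of genes in brackets; black bars are medians and dotted lines mark 2-fold. Most subunits lie between 0 and -1 in every library and are lowest in VEMD4, while Uqcrb stands above 0.8 in VEMD6 and VEMD8, and the assembly factors are lowest in VEMD6.

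Complex I, which takes electrons from NADH, had 36 subunit members, at 23.9 to 398 FPKM in WT. Their median log2 ratio was -0.50, -0.58, -0.73, -0.46 and -0.56. Among the subunits that bind flavin or iron-sulfur clusters, Ndufv1, the site of NADH oxidation, was at 160.0 FPKM in WT and 121.3, 121.1, 103.7, 133.0 and 117.3 in the knockouts. Ndufv2, an iron-sulfur partner of Ndufv1, was at 143 in WT and 93.5, 90.8, 81.1, 109 and 112 in the knockouts. Both were highest in WT and lowest in VEMD4.

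Ndufs1, the large iron-sulfur subunit, was among the members nearest to WT, at 104.8 FPKM in WT and 87.9, 78.7, 70.3, 86.6 and 90.4 in the knockouts. It was highest in WT and lowest in VEMD4. Ndufs7, which holds the last iron-sulfur cluster before the quinone, was at 169 in WT and 104, 107, 95.2, 107 and 93.2 in the knockouts. Ndufs8, with clusters further up that chain, was at 127 in WT and 92.7, 80.8, 69.1, 75.7 and 69.5 in the knockouts. Unlike Ndufs1, Ndufs7 and Ndufs8 were as low in VEMD8 as in VEMD4, with log2 ratios of -0.85 and -0.86 in VEMD8.

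Of the accessory subunits, Ndufb9 in the membrane arm was the most abundant, at 398 FPKM in WT and 271, 238, 227, 353 and 305 in the knockouts. Its level was closest to WT in VEMD6. Ndufb11, an X-linked subunit of the same arm, had the lowest median of its 5 ratios in complex I, with 187 in WT and 113.0, 111.9, 99.6, 112.0 and 106 in the knockouts. Ndufv3, at the NADH-binding end, was at 184 in WT and 111, 89.1, 87.1, 142 and 124 in the knockouts, and its log2 ratios of -1.04 in VEMD3 and -1.07 in VEMD4 passed 2-fold. Ndufa6, another accessory subunit, was the single complex I subunit that was highest outside WT, at 212 in VEMD6 against 197 in WT.

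**Figure D2:**
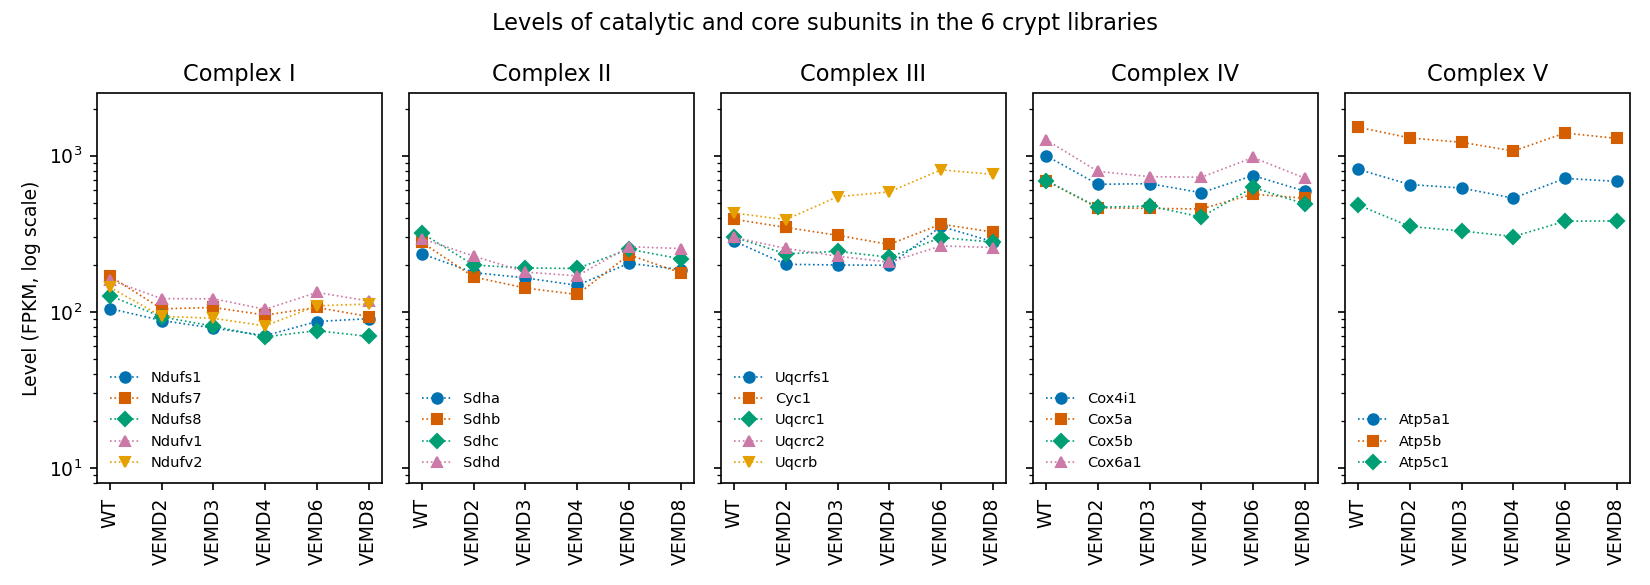
Levels in FPKM (log scale) of subunits that carry cofactors, catalysis or the core of complexes I to V, with Uqcrb and Cox6a1, which have the highest mean level in complexes III and IV, in the 6 crypt libraries; each point is 1 library and dotted lines join points of a gene. The levels are highest in WT except those of Uqcrb and Uqcrfs1, which are highest in VEMD6.

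Complex II, succinate dehydrogenase, is also an enzyme of the citric acid cycle and is built from nuclear genes alone. Sdha, its flavoprotein, was at 235 FPKM in WT and 178, 165, 148, 204 and 186 in the knockouts. Sdhb, its iron-sulfur subunit, was at 278 in WT and 167, 142, 129, 232 and 177 in the knockouts, and had a log2 ratio of -1.10 in VEMD4. Sdhc, a membrane anchor, was at 318 in WT and 199, 191, 189, 252 and 218 in the knockouts. For these genes the order ran from WT through VEMD6 to VEMD4 as the lowest.

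Sdhd, the other anchor, followed the same order, at 294 FPKM in WT and 227, 180, 170, 261 and 254 in the knockouts. The median log2 ratio over the 4 genes was -0.54, -0.72, -0.77, -0.23 and -0.44. The value of VEMD6 equals the shift of its median gene, and relative to it the median was 0.0034.

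Complex III, the cytochrome bc1 complex, held the member that departed most among common subunits. Uqcrb (gene 67530, GRCm38 chromosome 13, 66900576 to 66905350), a small subunit near the quinone site, was at 429 FPKM in WT and 389, 545, 586, 811 and 759 in the knockouts. Its log2 ratios were -0.14, 0.35, 0.45, 0.92 and 0.82, or 1.15 in VEMD6 relative to the median gene. Its transcript matches those of 3 annotated pseudogenes at 95% identity or more over at least 100 bases, the longest match being 336 bases, so reads of Uqcrb and these copies may have been shared and its value is uncertain.

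Uqcrfs1, the Rieske iron-sulfur protein, was at 284 FPKM in WT and 201, 199, 198, 352 and 281 in the knockouts. VEMD2, VEMD3 and VEMD4 were alike and low, VEMD8 was at the WT level and VEMD6 above it. Cyc1, cytochrome c1, was at 391 in WT and 347, 309, 270, 364 and 324 in the knockouts. Uqcrc1, a core protein, was at 301 in WT and 235, 244, 223, 299 and 279 in the knockouts. Both were lowest in VEMD4 and nearest to WT in VEMD6, with the other libraries in a different order.

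Uqcrc2, the other core protein, was at 299 FPKM in WT and 255, 227, 208, 264 and 258 in the knockouts. Uqcr11, a small accessory subunit, had the lowest median of ratios in the complex and was at 441 in WT and 317, 279, 250.2, 298 and 246 in the knockouts. The median of the 9 subunits was -0.43, -0.40, -0.52, -0.18 and -0.27, and without Uqcrb it was -0.45, -0.46, -0.53, -0.24 and -0.27. Relative to the median gene, that of VEMD6 changed sign to 0.055 with Uqcrb and was -0.0069 without it.

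Complex IV, cytochrome c oxidase, had 11 common subunits including Ndufa4, which is named for complex I and now placed in complex IV. Their median log2 ratio was -0.58, -0.59, -0.77, -0.37 and -0.56. Cox4i1, the largest nuclear subunit, was at 998 FPKM in WT and 655, 661, 579, 746 and 593 in the knockouts. Cox5a was at 691 in WT and 463, 460, 455, 567 and 534 in the knockouts. Cox5b, which binds zinc, was at 693 in WT and 467, 476, 405, 626 and 491 in the knockouts. In each of these the libraries VEMD2, VEMD3 and VEMD4 lay below VEMD6.

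The most abundant gene of complex IV was Cox6a1, at 1261 FPKM in WT and 793, 733, 727, 973 and 718 in the knockouts. Cox6b1, which helps the enzyme to form dimers, was at 1074 in WT and 747, 699, 649, 946 and 821 in the knockouts. Cox7a2 was at 329 in WT and 248, 226, 210, 287 and 249 in the knockouts. Cox7b, Cox8a and Ndufa4 kept to the same range, with log2 ratios of -0.99 to -0.46, -0.61 to -0.38 and -0.69 to -0.28. Cox7a2l had ratios of -0.73 to -0.51.

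Tissue isoforms of complex IV were mostly near 0 FPKM or without a value, but a pair of them passed the filter, with unlike patterns. Cox7a1 (gene 12865, GRCm38 chromosome 7, 30184171 to 30186030), the heart and muscle isoform of Cox7a2, was at 129 FPKM in WT and 63.5, 23.7, 34.0, 107 and 42.3 in the knockouts. Its log2 ratios were -1.01, -2.39, -1.89, -0.27 and -1.58. VEMD3 was lowest and VEMD6 nearest to WT. The 8 stromal and muscle markers together stayed at or below 2.19 FPKM in every library.

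Cox6b2 (gene 333182, GRCm38 chromosome 7, 4751792 to 4753094), the testis isoform of Cox6b1, was among the members of lowest level, at 5.15 FPKM in WT and 6.51, 15.8, 18.7, 2.87 and 2.29 in the knockouts. It was highest in VEMD3 and VEMD4, with log2 ratios of 1.45 and 1.68, and was below WT in VEMD6 and VEMD8, at -0.67 and -0.90. Cox4i2, known from lung and low oxygen, was listed at 0 except for 0.09 in VEMD3, and Ndufa4l2, induced by low oxygen, at 0 except for 0.13 in VEMD4. Cox6a2, of heart and muscle, was at 0.09 to 0.46 FPKM. These 3 genes were below the filter, and Cox7b2, Cox8b and Cox8c had no value in any library.

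**Figure D3:**
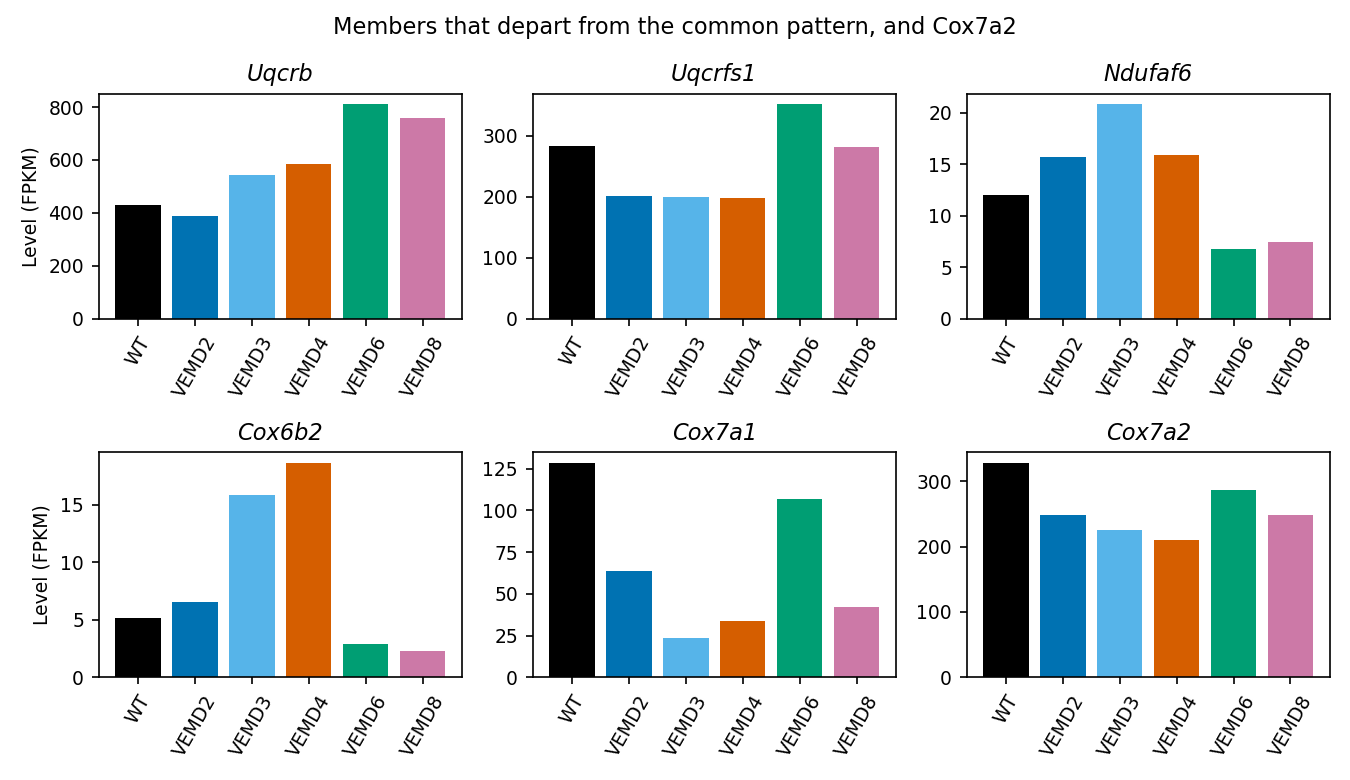
Levels in FPKM of 5 members that departed from the common pattern, and of Cox7a2 for comparison with its isoform Cox7a1, in the 6 crypt libraries; each bar is 1 library. Uqcrb and Uqcrfs1 are highest in VEMD6, Ndufaf6 and Cox6b2 are higher in VEMD3 and VEMD4 than in VEMD6 and VEMD8, and Cox7a1 is lowest in VEMD3.

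Complex V, the ATP synthase, held the most abundant member of all. Atp5b, its catalytic beta subunit, was at 1521 FPKM in WT and 1297, 1218, 1070.4, 1396 and 1289 in the knockouts. Atp5a1, the alpha subunit, was at 817 in WT and 653, 620.0, 534, 715 and 684 in the knockouts. Atp5c1, the central shaft, was at 483 in WT and 352, 329, 303, 379.9 and 382 in the knockouts. Atp5b was nearest to WT of the 17 subunits by the median of its ratios, which ran from -0.51 in VEMD4 to -0.12 in VEMD6.

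The proton-conducting ring is encoded by Atp5g1, Atp5g2 and Atp5g3, whose mature proteins are the same. Atp5g3 was at 1253 FPKM in WT and 816, 775.3, 698, 888 and 775.2 in the knockouts. Atp5g1 was at 419 in WT and between 276 in VEMD4 and 329.9 in VEMD2 in the knockouts. Its longest transcript matches those of 19 other genes, 2 of them annotated as pseudogenes, the longest match being 411 bases, so its value is uncertain. Atp5g2 was at 358 in WT and 293, 285, 238, 205 and 233 in the knockouts, and was the single complex V gene with its lowest level in VEMD6. Atp5j2, a membrane subunit, had the lowest median of ratios in the complex, at 673 in WT and 418, 376, 314, 454 and 358 in the knockouts. The median of the 17 genes was -0.48, -0.56, -0.67, -0.36 and -0.46.

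The 8 Ndufaf genes, which help to assemble complex I and are not part of it, had another order of libraries. They were at 6.18 to 46.4 FPKM in WT, with a summed level of 160.5 in WT and 146, 155, 124, 98.4 and 112 in the knockouts. Their median log2 ratio was -0.11, -0.09, -0.33, -0.65 and -0.44, or -0.20, -0.21, -0.36, -0.42 and -0.38 relative to the median gene. VEMD6 was the lowest library for 7 of the 8, but it was so for 47.3% of all genes tested. Ndufaf6, of the squalene and phytoene synthase family, was at 11.98 in WT and 15.7, 20.8, 15.9, 6.79 and 7.47 in the knockouts, so it was above WT in 3 libraries and below it in VEMD6 and VEMD8.

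The order of the libraries was set out over the subunits, with the share of all genes beside it. WT was the highest of the 6 libraries for 74 of 77 subunits, against 21.0% of all genes tested, and VEMD4 the lowest for 66, against 11.4%. Relative to the median gene, these counts were 55, against 21.1%, and 56, against 13.8%, and VEMD6 was then the highest for 22, against 25.2%, which is near the background. Between knockouts, VEMD6 was above VEMD4 for 76 of 77 subunits, with a median log2 ratio of 0.36, while it was above VEMD4 for 31.5% of all genes, with a median of -0.28. The exception was Atp5g2. Scaling bears on single genes too: relative to the median gene, Uqcrc1, Cyc1 and Atp5b were above WT in VEMD6, at 0.22, 0.13 and 0.11. VEMD8 was above VEMD4 for 69 of 77, against 39.9% of all genes, with a median of 0.23, and below VEMD6 for 66 of 77, against 32.3%, with a median of -0.13. VEMD4 was below VEMD3 for 73 of 77, against 67.7% of all genes, a share that is high for genes in general. VEMD4 was also below VEMD2 for 73, against 62.3%, and VEMD3 below VEMD2 for 58, against 43.1%.

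Markers of cell types differed between the same libraries, and their part in the result was not tested. All 9 enterocyte markers were tested, and their summed level was 10008 FPKM in WT and 3783, 3069, 7337, 17631 and 8169 in the knockouts. The summed level of 8 Paneth cell markers was 28075 in WT and 39872, 20460, 8088, 2276 and 3464 in the knockouts, and that of 8 stem cell markers was 706 in WT and 637, 446, 256, 216 and 386 in the knockouts. The stem cell sum is mostly Olfm4, at 574 in WT, and most of that list went the other way in VEMD2 and VEMD3, where 5 of 8 markers were above WT and the median log2 ratio was 0.34 and 0.46, against 0.0031, -1.07 and -0.65 in VEMD4, VEMD6 and VEMD8. None of the genes on these lists was at 0 in any library. In VEMD2 all 8 Paneth markers were above WT, and 8 of 9 enterocyte markers and the subunits were below it. In VEMD3, 5 of 8 Paneth and all 9 enterocyte markers were below WT. In VEMD4, where the subunits were lowest, 7 of 8 Paneth and 8 of 9 enterocyte markers were below WT. In VEMD8, all 8 Paneth and 5 of 9 enterocyte markers were below WT. In VEMD6, all 8 Paneth markers were below WT, with a median log2 ratio of -3.36, and 7 of 9 enterocyte markers were above it. Lct was at 16.7 there against 65.1 in WT, and Sis at 164 against 170.4. The subunits were nearer to WT in VEMD6 than in the other libraries. The 8 proliferation markers summed to 503 in WT and to 284 to 630.0 in the knockouts. The 7 leukocyte markers summed to 8.62 in WT and to 6.60 to 21.6 in the knockouts, highest in VEMD4. The stromal and muscle sum was also highest in VEMD4, at 2.19 against 0.39 in WT. Over all libraries 7 goblet cell markers summed to 1016 to 5518 FPKM and 7 enteroendocrine markers to 30.9 to 596, both lowest in VEMD6 or VEMD8.

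What the subunits share beyond their names is short transcripts and high levels. The median length of their longest coding transcript was 908 bases, against 3029 for all genes tested that could be matched. Other genes of up to 1000 bases and at least 100 FPKM numbered 162, with median log2 ratios of -0.20, -0.11, -0.28, -0.74 and -0.53. They were less far below WT than the subunits in VEMD2, VEMD3 and VEMD4, near the subunits in VEMD8 and further below in VEMD6. Without genes of the cytosolic ribosomal protein prefixes 116 such genes were left, at -0.19, -0.30, -0.35, -0.37 and -0.38, which in VEMD6 is near the value of the subunits. Across the 77 subunits, which are not independent replicates, Spearman's rho of ratio and length was 0.13 to 0.30. For 36 of the 77 subunits the longest coding transcript matched that of another gene at 95% identity or more over at least 100 bases. The medians with and without such a match were -0.48 and -0.50 for VEMD2, -0.56 and -0.59 for VEMD3, -0.70 and -0.73 for VEMD4, -0.44 and -0.37 for VEMD6 and -0.48 and -0.55 for VEMD8. These matches include genes other than pseudogenes, such as Emc8 for Cox4i1 and Mrpl47 for Ndufb5, so the split does not isolate subunits with copies. Subunits that also match annotated pseudogenes include Atp5c1, Atp5h, Atp5k, Atp5l, Cox7b, Cox7c, Ndufb11, Ndufs3 and Uqcr11, so reads may be shared there too. These names are examples and not the complete list.

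The promoters of the subunits were read for short motifs of factors known to act on respiratory genes. Any part of these motifs in the ratios was not tested. RefSeq windows on GRCm38.p6, from 250 bases before to 50 after a gene's start, were found for 64 of the 77 subunits, in 69 windows. The whole site of NRF1, a regulator of nuclear genes for mitochondria, is GCATGCGC preceded by GC, and it stood in 5 windows, which is 7.25% against 1.33% of 21263 windows of coding genes. GCATGCGC itself, which lies within the whole site, stood in 14.5% against 3.52%. CCGGAAG, bound by ETS factors such as GABPA, stood in 24.6% against 11.6%, ATGGCGG, the core for YY1, in 15.9% against 5.25%, and AAGGTCA, for estrogen-related receptors, in 11.6% against 4.08%. Both strands were searched. The general motifs CCAAT and GGGCGG were found in 40.6% against 38.2% and in 39.1% against 46.2%. Subunit windows had a median of 20 CG dinucleotides against 13, the part of which in these shares was not tested, and a match is a description of letters only.

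Windows of 3 subunits of the common pattern and of the isoforms Cox7a1 and Cox6b2, which departed from it, are shown. The 3 subunits were not chosen by a rule and all hold motifs, so they do not stand for the 64 subunits with a window. The windows are printed in the direction of the gene, with every match to the NRF1, ETS, YY1 and estrogen-related receptor motifs in capitals. They lie at chr5:115348909-115349208 on the minus strand (Cox6a1), chr5:108434350-108434649 on the minus strand (Atp5k, a membrane subunit of complex V), chr4:140961021-140961320 on the plus strand (Sdhb), chr7:30183921-30184220 on the plus strand (Cox7a1) and chr7:4753045-4753344 on the minus strand (Cox6b2).
Cox6a1: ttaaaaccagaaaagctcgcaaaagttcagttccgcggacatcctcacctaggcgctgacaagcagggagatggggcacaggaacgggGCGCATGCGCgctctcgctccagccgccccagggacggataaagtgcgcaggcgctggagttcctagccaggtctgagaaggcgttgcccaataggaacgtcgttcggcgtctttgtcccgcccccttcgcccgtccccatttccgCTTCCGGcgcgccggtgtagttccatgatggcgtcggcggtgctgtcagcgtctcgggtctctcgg
Atp5k: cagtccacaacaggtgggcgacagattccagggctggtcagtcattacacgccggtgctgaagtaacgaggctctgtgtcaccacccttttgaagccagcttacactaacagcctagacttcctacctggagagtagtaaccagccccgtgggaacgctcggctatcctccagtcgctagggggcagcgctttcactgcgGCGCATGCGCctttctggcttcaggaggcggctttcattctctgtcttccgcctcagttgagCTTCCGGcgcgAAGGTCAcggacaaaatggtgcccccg
Sdhb: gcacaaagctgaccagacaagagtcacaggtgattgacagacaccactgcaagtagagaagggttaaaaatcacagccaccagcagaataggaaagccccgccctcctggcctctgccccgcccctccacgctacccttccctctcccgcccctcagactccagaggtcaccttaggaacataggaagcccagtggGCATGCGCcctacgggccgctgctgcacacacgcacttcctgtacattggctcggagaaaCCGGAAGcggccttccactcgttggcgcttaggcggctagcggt
Cox7a1: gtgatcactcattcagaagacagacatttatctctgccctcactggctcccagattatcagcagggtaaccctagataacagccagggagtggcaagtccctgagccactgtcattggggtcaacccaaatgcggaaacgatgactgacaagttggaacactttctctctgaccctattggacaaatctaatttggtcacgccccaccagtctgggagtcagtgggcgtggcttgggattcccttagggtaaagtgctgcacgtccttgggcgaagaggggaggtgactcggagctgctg
Cox6b2: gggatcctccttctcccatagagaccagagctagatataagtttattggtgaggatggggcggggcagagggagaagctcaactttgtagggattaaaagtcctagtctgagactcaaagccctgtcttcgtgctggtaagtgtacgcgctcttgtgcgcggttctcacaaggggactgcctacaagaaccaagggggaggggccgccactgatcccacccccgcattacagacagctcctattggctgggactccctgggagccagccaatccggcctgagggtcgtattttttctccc
Cox6a1 and Atp5k hold the whole NRF1 site and a reverse ETS motif, and Sdhb the part of the NRF1 site and a forward ETS motif. The windows of Cox7a1 and Cox6b2 hold none of these letters, and neither do those of 29 of the 64 subunits with a window, Cox5a, Cox5b, Cox7c and Atp5j2 among them, so the absence is not particular to the isoforms. The level of Atp5k was 460 FPKM in WT and 329, 312, 283, 398 and 349 in the knockouts.

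Other nuclear genes of mitochondria did not share the pattern of the subunits in every library. The list of complex assembly, which includes the Ndufaf genes, gave medians of -0.16, -0.10, -0.35, -0.50 and -0.33 for 48 genes, and 1 gene, Nubpl, which inserts iron-sulfur clusters, was 2-fold lower, in VEMD6, where 8.15% of all genes were. Over 78 genes of the mitochondrial ribosome the medians were -0.06, 0.0052, -0.22, -0.56 and -0.35, that of VEMD3 being -0.12 relative to the median gene, and 3, Mrpl2, Mrps28 and Mrpl23, were 2-fold lower, in VEMD6. Over 25 genes of protein import they were 0.18, 0.24, -0.0096, -0.41 and -0.25, with Timm9, a chaperone of the space between the membranes, 2-fold lower in VEMD6. In each of these lists the 2-fold lower genes were a smaller share than among all genes. VEMD6 had the lowest median in these lists. Relative to the median gene it was at -0.26, -0.33 and -0.18, and VEMD4 was then lowest for assembly and VEMD8 for import.

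For 15 genes that keep and transcribe mitochondrial DNA the medians were 0.04, 0.20, -0.12, -0.69 and -0.13, of which that of VEMD2 changed sign relative to the median gene, to -0.045. Polg2, the accessory subunit of its polymerase, was at 8.16 FPKM in WT and 4.32, 3.53, 2.99, 3.28 and 2.65 in the knockouts. Tfam, which packages that DNA, had log2 ratios of -0.24, -0.26, -0.60, -0.98 and -0.53, and Twnk, the helicase, of 0.20, 0.20, -0.10, -1.13 and -0.61. The 15 regulators of biogenesis had medians of -0.10, -0.31, -0.16, -0.23 and -0.11, and 0.0092 in VEMD6 relative to the median gene. None was 2-fold higher in any library, against 2.44% to 7.1% of all genes. At least 2-fold lower were 0, 1, 2, 1 and 1 of them, against 2.39%, 4.62%, 5.04%, 8.15% and 5.21%. Ppara, a receptor for fatty acids, was at 7.11 in WT and 5.53, 2.33, 1.8, 7.59 and 7.36 in the knockouts. Esrrg, an estrogen-related receptor, was lowest in VEMD4, at 0.88 against 2.86 in WT, and Myc had ratios of -1.66 in VEMD6 and -1.23 in VEMD8.

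The citric acid cycle, which feeds the chain, had, over 19 genes, medians of -0.20, -0.27, -0.42, -0.13 and 0.0083, and of 0.10 in VEMD6 relative to the median gene. Idh2, which makes NADPH in mitochondria, was lowest in VEMD4, at 27.4 FPKM against 65.2 in WT, while Ogdh, of the oxoglutarate dehydrogenase, was at 99.2 in WT and 201 in VEMD6, and Pcx, pyruvate carboxylase, at 7.94 and 17.4. Coq8a, needed for ubiquinone, was at 12.2 in WT and 3.78, 3.12, 1.28, 0.96 and 1.93 in the knockouts, and was at least 2-fold lower in each. Atpif1, the inhibitor of complex V, was at 217 in WT and 106, 93.8, 89.3, 120 and 118 in the knockouts. Ckmt1, the mitochondrial creatine kinase, was lowest in VEMD3, at 381 against 899.7 in WT and 1006 in VEMD6. The list of nucleotide and phosphate carriers had 8 tested genes, Slc25a4 among them, but also Atpif1, Ckmt1 and the Vdac genes. Its medians were -0.29, -0.18, -0.29, 0.20 and -0.08, and those of 11 genes of cytochrome c and ubiquinone were -0.07, -0.13, -0.35, -0.30 and -0.22.

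Slc25a4, a carrier of ADP and ATP best known from heart and muscle, went the other way and was at 12.8 FPKM in WT and 17.3, 23.4, 29.0, 34.5 and 35.0 in the knockouts. For 12 antioxidant and uncoupling genes the medians were -0.08, 0.0074, -0.25, -0.37 and -0.28, and that of VEMD3 was -0.12 relative to the median gene. None was past 2-fold, against 2.44% to 7.1% of all genes higher and 2.39% to 8.15% lower. Medians were also taken for glycolysis. For 18 genes of the glycolysis list, which also holds the transporters Slc2a1 and Slc16a3 and the kinase Pdk1, they were -0.05, -0.11, 0.16, 0.38 and 0.39. Of these, 0, 3, 4, 1 and 3 were at least 2-fold higher, against 2.44%, 6.0%, 7.1%, 5.04% and 4.36% of all genes. The gene in VEMD6 was Slc16a3, and Slc2a1 was among those in VEMD3, VEMD4 and VEMD8. In VEMD2, 1 gene, Slc16a3, was 2-fold lower, against 2.39%. Hk1, a hexokinase, was at 1.53 in WT and 2.85, 5.38, 11.04, 4.03 and 11.1 in the knockouts, and its relative Hk2 at 14.95 in WT, 60.5 in VEMD4 and 12.2 in VEMD6. Slc16a3, an exporter of lactate, ranged from 4.65 in VEMD2 to 46.47 in VEMD6, with WT at 10.4.

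Cytosolic ribosomal proteins, a large set taken by symbol prefix, were at medians of -0.18, -0.0044, -0.24, -1.16 and -0.58 for 90 genes. Their lowest library was VEMD6, where 65 of them were at least 2-fold lower, against 8.15% of all genes, while the oxidative phosphorylation subunits were lowest in VEMD4 and nearest to WT in VEMD6. In VEMD3 the ribosomal median was close to WT, or -0.13 relative to the median gene, and that of the subunits was -0.58. The 837 non-members whose mean reached 100 FPKM were at medians of -0.09, -0.04, -0.12, -0.18 and -0.16, that of VEMD6 being 0.06 relative to the median gene.

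**Figure D4:**
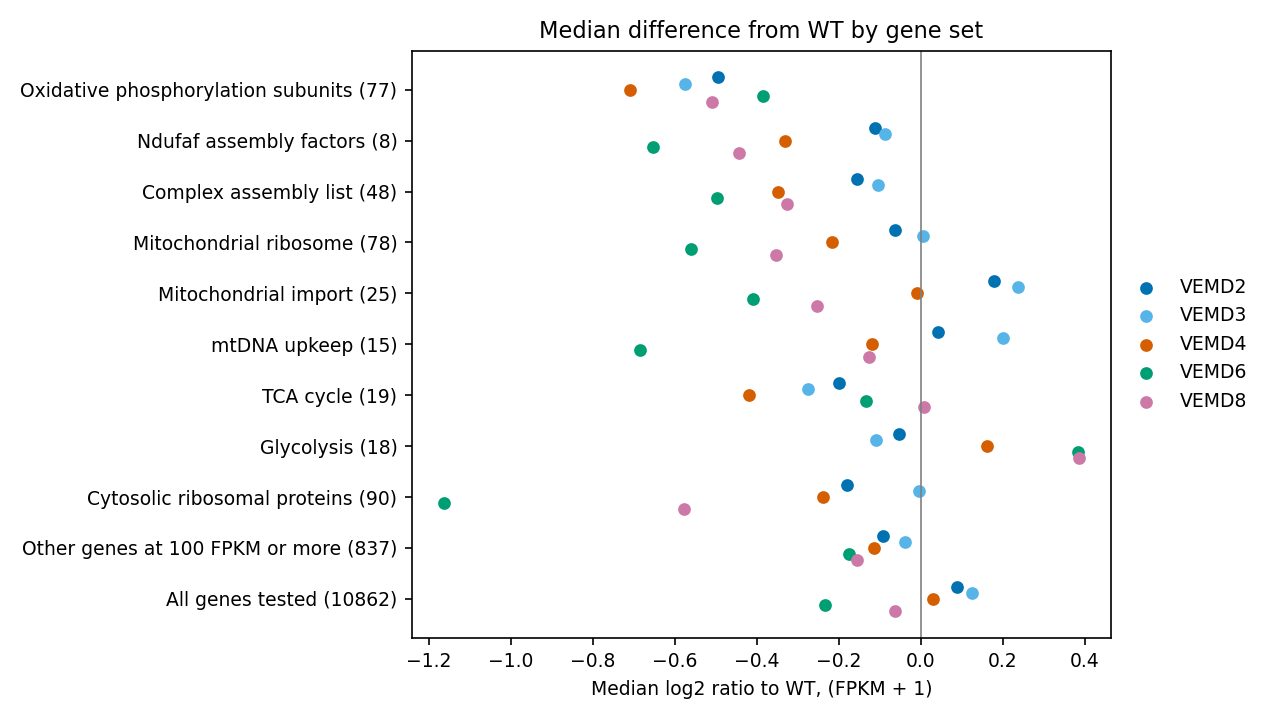
Median log2 ratio to WT (horizontal axis, after adding 1 FPKM) of the oxidative phosphorylation subunits and of other gene sets (rows, with the number of genes tested) in the 5 knockout libraries (colours); each point is 1 library. The subunits lie left of 0 in all 5 libraries, from -0.71 in VEMD4 to -0.38 in VEMD6, while sets such as the mitochondrial ribosome lie near 0 in VEMD2 and VEMD3.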

How the data were processed

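RNA was measured by sequencing in 6 crypt libraries, prepared with BGI-500 protocols per the labels. The authors deposited gene values as FPKM, named so per the file headers, and each holds at most 2 decimals. HISAT2, featureCounts and edgeR and the builds GRCm38 and mm10 are named in the submitters' processing notes, without versions or roles. The WT column was matched to the crypt control because the labels list it in 1 set with the VEMD libraries. Of 20718 lines, 3760 held no value, and 2 columns of values in a separate table were not used here. Low values gave no usable steps of whole reads: of genes at 0.1 to 0.5 FPKM, the fullest bin of ratios, 0.05 wide in log2, held 4.36% to 5.74%, so depth is unknown.

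Symbols came from RefSeq GRCm38.p6 by gene identifier and named 16916 of 16958 genes. Ratios, medians and counts were computed in Python 3.11.15 with pandas 2.3.3, and the calculation was tested on simulated data. Matches to other genes were sought with blastn 2.17.0 in GENCODE transcripts of the same build. Alternatives were pseudocounts of 0.1 and 5 FPKM, other filters, a 1.5-fold threshold, 2 rescalings and leaving out libraries. The members and lists were chosen with earlier results of these data known. Named members are the cofactor-bearing and catalytic subunits, the gene of highest mean level and those of highest and lowest median ratio (mean of at least 5 FPKM) in each complex, those 2-fold from WT in at least 2 libraries and isoform pairs, and from other lists up to 3 genes by the size of the ratio. Atp5e, Atp5h, Cox7c, Ndufb5, Ndufa6, Atp5k, Cox7a2l and the markers named singly are outside that rule, picked with their values known. Some items that this rule or these lists take are not reported here.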

Additional observations from a re-analysis of the deposited data

Results flagged for a closer look

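Members that were at least 1.5-fold above WT in one knockout library and at least 1.5-fold below it in another were looked for, and with 1 library per group the difference was not tested. Cox6b2 had a log2 ratio to WT of 1.68 in VEMD4 and of -0.90 in VEMD8. Ndufaf6 had 0.75 in VEMD3 and -0.74 in VEMD6, where the ratio was -0.50 relative to the median gene, which is under 1.5-fold, and VEMD8 was at -0.55, so on that scale Ndufaf6 no longer meets the criterion.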

How the results depend on the processing

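No paired analysis was possible because WT and each knockout are single libraries. A median was taken as moved when it shifted by 0.05 or more, since there is no spread between replicates. Rescaling to the median gene gave members medians of -0.57, -0.67, -0.19 and -0.45 for VEMD2, VEMD3, VEMD6 and VEMD8, and rescaling to a sum of 1000000 gave -0.41, -0.49, -0.15 and -0.27 for VEMD3, VEMD4, VEMD6 and VEMD8. With the median gene, VEMD2, VEMD3, VEMD6 and VEMD8 gave -0.59, -0.71, -0.22 and -0.50 for complex I, -0.62, -0.84, 0.0034 and -0.38 for complex II, -0.52, -0.53, 0.055 and -0.21 for complex III, -0.66, -0.72, -0.14 and -0.50 for complex IV, and -0.57, -0.68, -0.13 and -0.40 for complex V. With a sum of 1000000, VEMD3, VEMD4, VEMD6 and VEMD8 gave -0.45, -0.54, -0.18 and -0.31 for complex I, -0.59, -0.57, 0.0499 and -0.19 for complex II, -0.27, -0.33, 0.10 and -0.0208 for complex III, -0.46, -0.58, -0.0916 and -0.31 for complex IV, and -0.43, -0.48, -0.0806 and -0.21 for complex V. A pseudocount of 5 FPKM moved complex I in VEMD3 to -0.53. The signs of complexes II and III in VEMD6 thus depend on the scaling. The sums of FPKM differ between libraries, which is what the last scaling removes.

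Members at least 2-fold lower numbered 1 in VEMD6 and 2 in VEMD8 with a pseudocount of 0.1, 0 in VEMD2 with 5, 4 in VEMD3 with the median gene, and 0, 1 and 1 in VEMD2, VEMD3 and VEMD4 with a sum of 1000000. Members 2-fold higher numbered 1 in VEMD6 under both rescalings and 1 in VEMD8 with a sum of 1000000. Without assembly factors and isoforms, 0 were lower in VEMD2 and VEMD8 and 1 in VEMD3, and 0 were higher in VEMD3 and VEMD4. At 1.5-fold, 24, 38, 63, 18 and 32 were lower from VEMD2 to VEMD8, 5 were lower in all libraries, and 2, 1 and 1 were higher in VEMD3, VEMD6 and VEMD8. Leaving out each library gave 0 to 1 members lower in all others, the 1 being Cox7a1 without VEMD6, and 0 higher. Of 190 ratios of 38 named members, 12 changed sign with the median gene, all but that of Uqcrfs1 in VEMD8 being of VEMD6, and 21 with a sum of 1000000. The order of libraries under a sum of 1000000, added after seeing the data, left WT highest for 51 subunits, against 12.3% of all genes, VEMD6 highest for 25, against 19.3%, and VEMD4 lowest for 51, against 9.31%. With 1 library per group, how much of any difference is between mice cannot be told.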
